A study of Bos taurus with 47 samples.

Results

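The 150 gene identifiers whose transcript level varied least over 15 cattle tissue labels are described here. They were chosen by their measured values, from 24616 identifiers measured as FPKM, the number of sequenced fragments per kilobase of transcript, scaled by the library's total. Each library was rescaled to a sum of 1000000 after leaving out the 10 identifiers highest in the lactating mammary gland, and the levels below are rescaled FPKM unless called deposited. An identifier could enter only if its deposited FPKM was at least 5 in each of 47 libraries, which 3159 identifiers (12.8%) met. Among these, the 150 with the smallest SD of log2 level over the 15 label means were taken, 4.75% of those that could enter. The steadiness of these 150 across tissues is therefore the selection itself and is given without a test.

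Genes with similar transcript levels in many tissues are often called housekeeping genes, because many of them serve tasks that nearly every cell carries out, such as making and degrading proteins, processing RNA and supplying energy. The best known of them serve as reference genes, against which a quantitative PCR measurement of another gene is scaled. A level relative to the rest of a library depends on what the rest contains, so steadiness is a property of a gene and of the scaling together. The deposited table lists Ensembl identifiers without gene names, and none was matched to a name, so the roles of the members, their pathways and their sequences are not given. Members are numbered by their rank in steadiness, member 1 being the steadiest, and 4 of them are given by identifier.

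The series compares transcriptomes among tissues of Holstein cattle, with total RNA sequenced in paired reads of 150 bases. For 10 tissues (liver, kidney, spleen, lung, heart, muscle, rumen, ileum, adipose and frontal cortex) there were 4 libraries each, from 2 males, called A and B here, and 2 females. Ovary and uterus had 2 libraries each, from the 2 females. The lactating mammary gland of 1 female, the dry mammary gland of the other and lymphocytes of a further male had 1 library each and no replicate, and the females are called the lactating and the dry cow after these glands. The labels give no age, treatment or cell purification, and no agent or genotype distinguishes the groups. Each library of a label comes from a different animal, and all but the lymphocyte library come from the same 4 animals. These are bulk tissues, in which fewer cells of a type and less RNA per cell cannot be told apart. Marker genes of the labelled tissues could not be looked up without names, so the labels were not checked against them.

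The deposited FPKM summed to between 576130 and 964931 per library. Fragment counts are not part of the table, so the depth is unknown. Steps among values under 0.2 FPKM gave relative depths from 0.798 to 1.51. Transcripts restricted to liver (18 genes), rumen (10) or muscle (9) appear as small traces in 37 libraries. The liver and rumen traces are nearly lacking in 10, namely the lymphocytes and 9 libraries of the lactating cow. These 9 are adipose, frontal cortex, heart, ileum, kidney, lung, ovary, spleen and uterus. Over these 10 the muscle traces reached 76.3 ppm of their level in muscle, against at least 90.8 ppm in the 37. The labels name no batch.

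The SD of log2 level over the label means ran from 0.146 for member 1 to 0.396 for member 150, with a median of 0.358 over the members. Over the 3159 identifiers that could enter, the median was 0.724 and the largest 2.98. The threshold did not fall in a gap of the values. The last 3 members had 0.3943, 0.3947 and 0.3960, and the first 3 identifiers outside had 0.3966, 0.3966 and 0.3973. Expressed as the highest over the lowest label mean, the members spanned 1.46-fold to 3.62-fold, with a median of 2.36-fold. In 18 members this range stayed under 2-fold, in 121 it lay between 2-fold and 3-fold, and in 11 it was 3-fold or more. The median over the 3159 was 6.10-fold, and 813 of them spanned 10-fold or more. Of the 3159, none outside the 150 stayed under 2-fold, and identifiers below the minimum level were not examined for this. Most members thus still differed by more than 2-fold between their highest and lowest tissue.

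**Figure D1:**
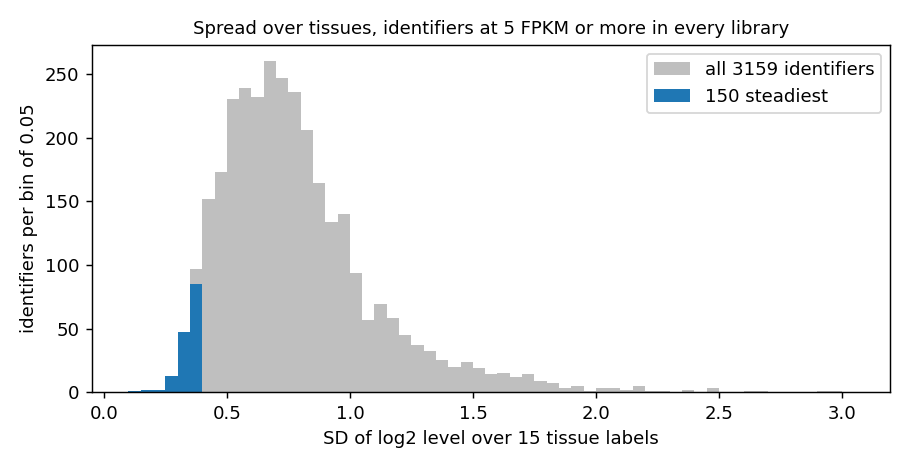
Histogram of the SD of log2 level over 15 tissue labels, in bins of 0.05, for all 3159 identifiers with at least 5 FPKM in every library (grey) and the 150 steadiest (blue). The members fill the left end, from 0.146 to 0.396, and only a few identifiers lie below 0.3.

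Member 1 is ENSBTAG00000009683. Its label means ran from 131 ± 10.2 in uterus (SD, n = 2) through 139 ± 8.73 in kidney (SD, n = 4) to 183 ± 9.73 in rumen and 191 ± 6.68 in ileum (SD, n = 4 each). Over single libraries the lowest was 123.6 (uterus of the dry cow), the median 156 and the highest 202.9 (ovary of the lactating cow). In ileum the 4 libraries held 186.3, 200.6, 186.5 and 191.0, and in spleen 157.7, 156.0, 159.2 and 168.0. The ileum libraries all stood above the spleen libraries and overlapped those of rumen (172.4 to 195.0), the next label in the order. The other ovary held 135.6, so the 2 ovaries lay far apart for this member.

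Member 2 is ENSBTAG00000021288. Its label means ran from 249 ± 27.3 in adipose (SD, n = 4) and 255 ± 16.7 in liver (SD, n = 4) to 358 ± 30.2 in heart (SD, n = 4) and 385 ± 105 in ovary (SD, n = 2). The ovary of the lactating cow held 459.5 and that of the dry cow held 311.4, so 1 library placed ovary above heart. Among single libraries the range was 233 to 459, with a median of 284. Across tissues this member changed by 1.55-fold and member 1 by 1.46-fold between the extreme label means.

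**Figure D2:**
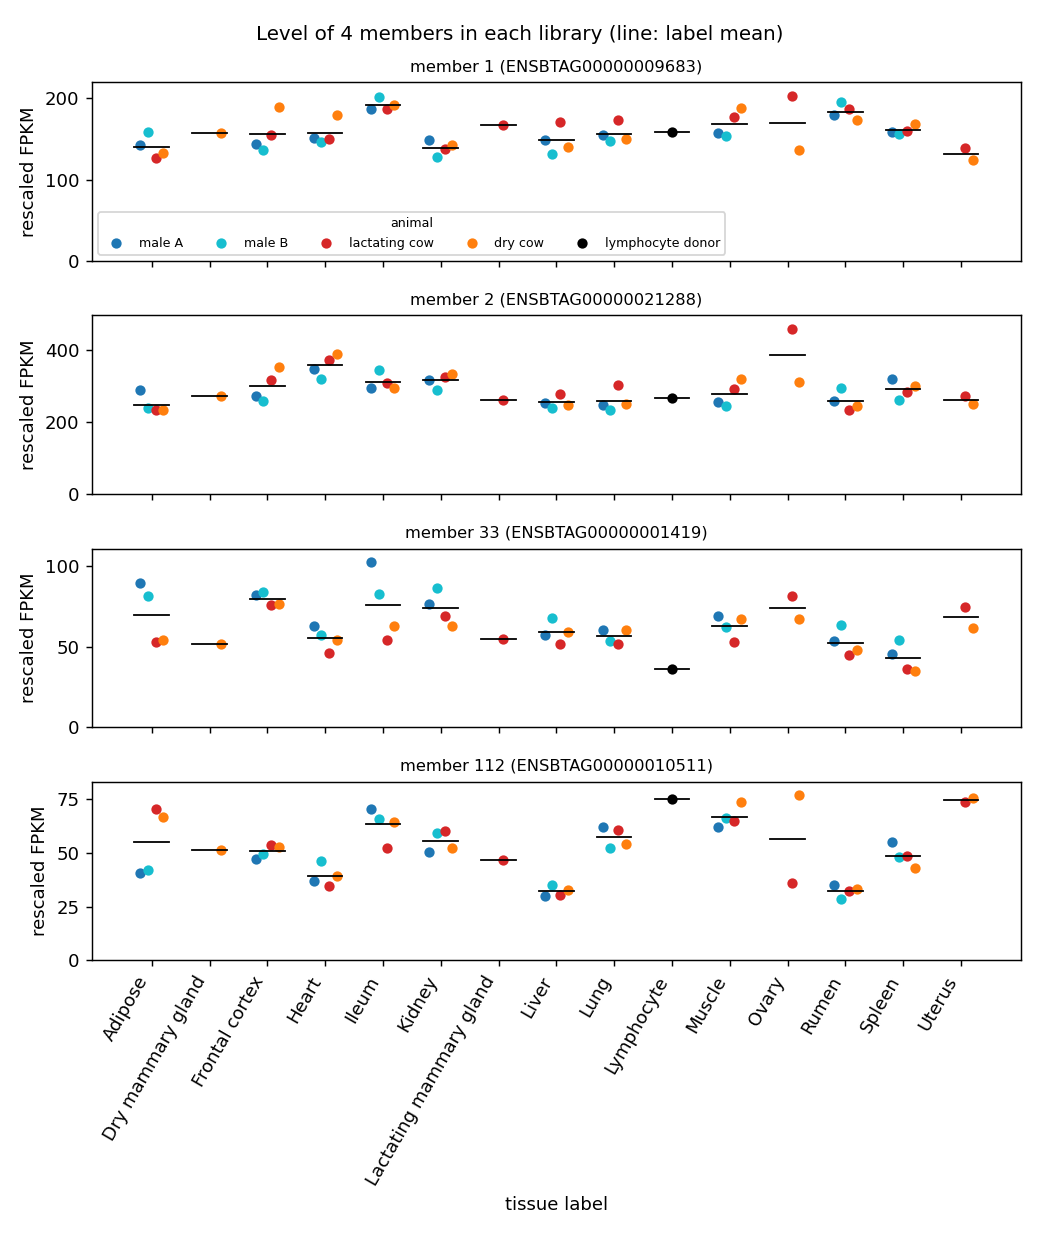
Rescaled FPKM in each library (points, coloured by animal) and label means (lines) for members 1, 2, 33 and 112, with each vertical axis starting at 0. Members 1 and 2 stay within 1.64-fold and 1.97-fold over all 47 libraries, member 33 is higher in both males than in both females in ileum and adipose, and member 112 is higher in both females in adipose.

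The next 10 members differed in where they peaked. Members 3 and 4 were highest in ovary, members 5 and 11 in lymphocytes, member 6 in heart, members 7 and 9 in frontal cortex, members 8 and 10 in ileum and member 12 in kidney. Member 5 was the least abundant of these, at a geometric mean over labels of 23.8, and had the largest spread between animals within a tissue of all members. Member 4 spanned 1.83-fold over label means but 2.97-fold over libraries, from 78.2 (uterus of the dry cow) to 232 (ovary of the lactating cow). A small range of label means could therefore hide a wider range of single libraries. Over the libraries, 3 members stayed within 2-fold, 10 within 2.5-fold, and 10 spanned 4-fold or more.

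Members were found over most of the levels that the minimum of 5 FPKM left in. The geometric mean level of a member ran from 19.5 to 876 with a median of 64.4, against a median of 61.4 over the 3159. When the 3159 were divided into 3 equal groups by level, the lowest held 54 members, the middle 41 and the highest 55. The lowest group ran from 14.3 to 43.9, with a median SD of 0.671, against 0.793 in the highest. The counts are part of the selection and say nothing of identifiers under the minimum. The most abundant member, member 135, was highest in the lactating gland (1307) and lowest in uterus (579). Member 58, the next, was highest in lung (1148) and lowest in liver (497). At the other end, members 59, 64, 122, 102 and 5 had geometric means of 19.5 to 23.8. The minimum of 5 FPKM kept out less abundant identifiers, and 645 failed it in exactly 1 library, 335 of these in the lactating gland. Of those 335, 17 had an SD within that of the members, with deposited values of 2.51 to 4.89 FPKM in the lactating gland.

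Liver was the tissue in which most members had their lowest label mean. It was the lowest label of 59 members (39.3%), against 20% of the 3159. Muscle followed with 19 members (12.7%, against 31.2%), then rumen with 17 (11.3%, against 7.91%) and heart with 15 (10%, against 19.3%). Spleen had 11 (7.33%, against 3.1%), uterus 10 (6.67%, against 3.36%) and lymphocytes 8 (5.33%, against 8.42%). On the log2 scale the median member lay 0.45 below its own mean over labels in liver, and 135 of 150 members were below it there. The median of the 3159 was lower still in liver, at -0.68, and only 557 of them were above their own mean. The members with their minimum in liver were a median of 1.60-fold under their own mean. Member 145 departed most, with 57.1 in liver against a geometric mean of 122 and a maximum of 206 in ovary, the widest range of all members at 3.62-fold.

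Peaks were spread over more tissues than minima. Frontal cortex was the highest label of 30 members (20%, against 19.3% of the 3159) and kidney of 23 (15.3%, against 10.9%). Ovary and lymphocytes were that of 17 each (11.3%, against 5.06% and 17.8%). Heart and the lactating gland had 13 each (8.67%, against 8.01% and 10.2%), and ileum 10 (6.67%, against 3.32%). Adipose, liver and lung were each the highest label of 1 member (0.667%, against 2.06%, 2.22% and 4.08%). The members that peaked in frontal cortex exceeded their own mean by a median of 1.5-fold there. Member 120 exceeded it most, with 127 in frontal cortex against a geometric mean of 52.4. Member 139 reached 890 in muscle against a geometric mean of 414, and member 86 reached 83.1 in kidney against 41.7. Single tissues thus stood out even among the steadiest identifiers, by 2.43-fold at most.

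Broadly expressed identifiers as a whole shifted between tissues in the rescaled values. In muscle, liver and heart the members' median shifted less, and in ovary (0.28 against 0.23) and spleen (-0.11 against 0.00) it lay farther from 0. The median of the 3159 lay at -0.83 in muscle, -0.68 in liver and -0.65 in heart on the log2 scale, relative to each identifier's own mean over labels. In frontal cortex and kidney it lay at 0.30. The members' medians were -0.20 in muscle, -0.45 in liver, 0.00 in heart, 0.21 in frontal cortex and 0.26 in kidney. Set against the median of the 3159, the members were therefore higher by 0.65 in heart and 0.63 in muscle, and lower by 0.29 in lung, again on the log2 scale. In heart 142 of 150 members, in muscle 148 and in liver 117 lay above the median of the 3159, and in lung 20 did. These differences follow from the choice by label means and carry no test.

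**Figure D3:**
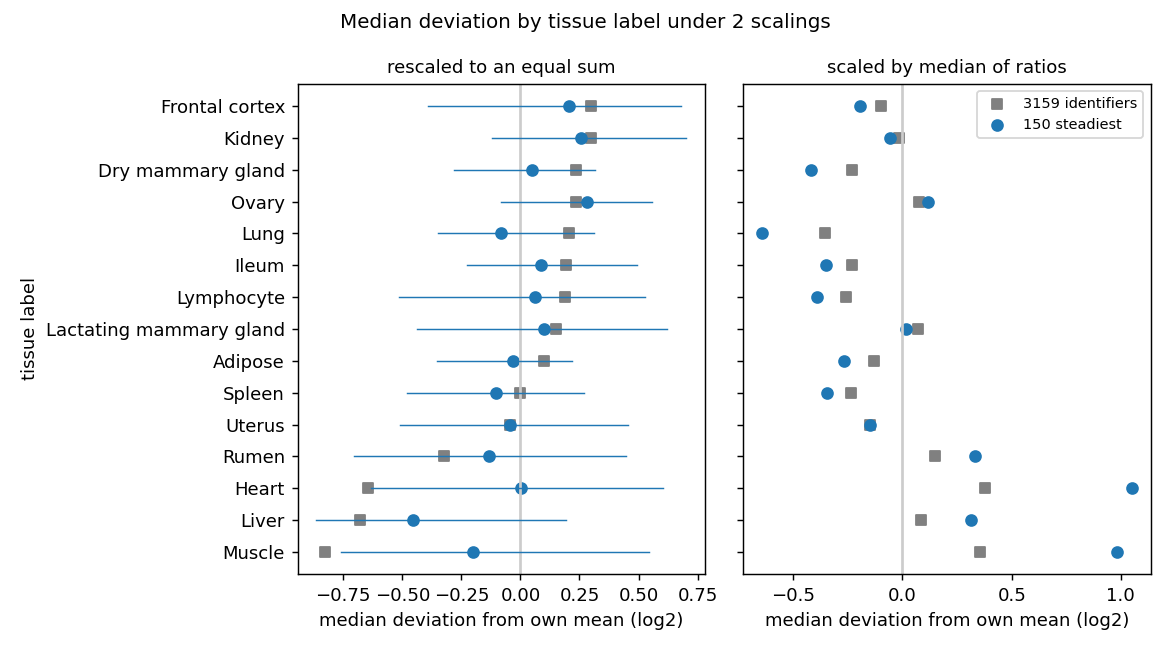
Median deviation of log2 level from each identifier's own mean over labels, for the 150 steadiest (blue circles) and the 3159 identifiers (grey squares), after rescaling to an equal sum (left) and after median-of-ratios scaling (right); blue lines on the left span the 5th to 95th percentile of the members. Liver, at -0.45, is the lowest label of the members on the left, whereas heart, at 1.05, is their highest on the right.

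Which identifiers were steadiest depended on the scaling. The rule was applied again to the same 3159 identifiers under 4 other scalings, and the new 150 steadiest were compared with the members. With deposited FPKM 41 members were among them, with quantile normalization 28, and with each library centred on the median of the 3159 24. With median-of-ratios size factors, computed on 11512 identifiers above 0 in every library, 1 member was among them. Members 1 and 2 then ranked 1396 and 1440. Under that scaling the members' median SD was 0.565 against 0.646 over the 3159, and 115 of 150 members still lay under the latter.

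The directions by tissue also turned with the scaling. Over the 5 scalings, the members' median deviation ran from -0.45 to 0.31 in liver, from -0.20 to 0.98 in muscle and from 0.00 to 1.05 in heart. A factor per library moves all identifiers alike, so the distance of the members from the median of the 3159 is nearly fixed under 4 of the 5 scalings, and only quantile normalization could move it. It was 0.57 to 0.67 in heart, 0.56 to 0.63 in muscle and 0.21 to 0.23 in liver, and at -0.29 to -0.27 in lung. In heart, 135 to 143 members were above that median under each of the 5, and in lung 20 to 26 were. That the members were low in liver or muscle depended on the scaling.

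With the scaling kept, membership was more stable. In 15 other settings, which changed the minimum level, the measure of spread, the tissues or the libraries, between 99 and 143 members were again among the 150 steadiest. The fewest, 99, came from using only the 10 tissues sampled in 4 animals, and without the 10 libraries that nearly lack the traces there were 121. In every one of the 15 settings, 66 members were among the steadiest, 48 of them from the first 50. Member 1 ranked first or second in each.

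Part of the remaining variation over labels was shared, by the members and by other identifiers. After the median offset of the other members was subtracted in each label, the members' median SD over labels was 0.292 in place of 0.358, and 127 of 150 members (84.7%) had a smaller SD. Member 1 was not among these, as its SD rose from 0.146 to 0.234. That of member 3 rose from 0.198 to 0.223, while that of member 2 fell from 0.187 to 0.174. Subtracting the members' offset from the 3009 identifiers outside them gave a median of 0.689 in place of 0.740, with a smaller SD in 85.6% of them.

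The lactating gland shows most plainly what the rescaling does. The 10 identifiers left out held 75.6% of its deposited FPKM, and 0.484% to 3.19% in the other 46 libraries. As deposited, 146 of 150 members (97.3%) had their lowest value of all libraries there, against 45.9% of the 3159, and all 150 were lower than in the dry gland, by a median of 2.80-fold. After rescaling, the median log2 difference of lactating minus dry gland was 0.05, with single members from -0.86 to 0.91, and 84 of 150 were higher in the lactating gland. No member differed by 2-fold between the 2 glands, against 16.5% of the 3159. The rule used both libraries, so nothing is read from that count, and with 1 library each the animal and the state of the gland cannot be told apart.

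**Figure D4:**
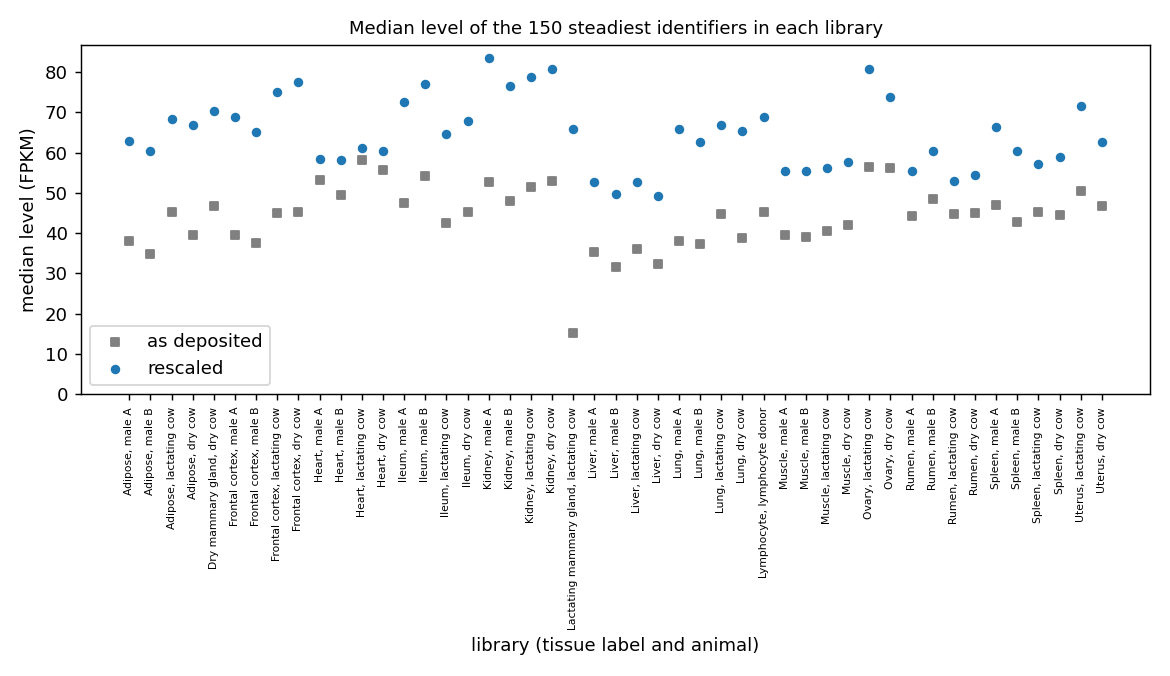
Median level of the 150 members in each of the 47 libraries, in deposited (grey squares) and rescaled (blue circles) FPKM, ordered by tissue label and animal. The lactating gland is lowest as deposited, at 15.1, and lies at 65.9 after rescaling, while the liver libraries stay lowest among the rescaled values, at 49.3 to 52.8.

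Within the labels of 2 libraries, those of the lactating cow lay higher, for the members and for the 3159. In the ovary of the lactating cow the median member lay 0.39 above its own mean on the log2 scale, and in that of the dry cow it lay 0.09 above. The median difference between the 2 ovaries was 0.31 over the members and 0.26 over the 3159, and between the 2 uteri 0.24 and 0.23. The ovary of the lactating cow was the highest of all 47 libraries for 29 members, a count that was not made over the 3159. Between the 2 ovaries 10 members differed by at least 2-fold, or 6.67%, against 16.6% of the 3159. Member 112 was one of them, with 36.2 in the lactating cow and 76.9 in the dry cow. Between the 2 uteri 1 member did, against 3.26%. Both libraries of the lactating cow are among the 10 that nearly lack the traces, and the part of this in the difference was not tested. Without that ovary library, 133 of the 150 members were again among the steadiest, and members 2 and 1 ranked first and second.

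The spread between animals of 1 tissue was not ranked by the rule, but it comes from libraries whose label means were, so it is given as a description. Over the 40 libraries of the 10 tissues sampled in all 4 animals, the SD of log2 level within tissues had a median of 0.163 over the members (quartiles 0.135 and 0.186), against 0.211 over the 3159. Without the libraries that nearly lack the traces the members' median was 0.155. In 136 of 150 members it was under the median of the 3159. Heart had the smallest median spread, 0.110, and ileum the largest, 0.171. Member 37 varied least between animals (0.0816), and member 5 most (0.286). The shares of variance restate in part the small differences between labels by which the members were chosen. Tissue still took a median of 85.6% of a member's variance (36.8% to 95.8%), against 93.8% over the 3159. For member 1 it took 64.4%. The animal took 1.99%, against 1.15%, and the remainder 11.6%, against 4.52%. Even among the steadiest identifiers, tissue was the largest source of variance for most.

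In each of the 10 tissues the 2 males were compared with the 2 females by limma over 16493 identifiers on log2(rescaled FPKM + 1). The labels do not say that males and females were handled alike, and 7 of the 20 female libraries here nearly lack the traces, all from the lactating cow. In ileum, 23 members (15.3%) were higher in males, against 12.5% of all identifiers tested and 15.4% of the 3159. Higher in females there were 2 members (1.33%), against 8.79% and 8.14%. The members' median male minus female difference in ileum was 0.17 on the log2 scale, and 123 of 150 were higher in males. The median was 0.13 over all identifiers and 0.14 over the 3159. Such shifts were not particular to ileum. In rumen 118 of 150 were higher in males (median 0.11, against 0.15 over all identifiers and 0.14 over the 3159). In frontal cortex 22 were (median -0.15, against 0 and -0.08). How many identifiers were higher in males, called or not, was counted for the members only. In adipose, 11 members (7.33%) were higher in males, against 6.1% and 11%, and 7 (4.67%) in females, against 4.47% and 5.63%. In the other 8 tissues no member passed in limma in either direction. Of all identifiers, those higher in males made up 3.66% in heart, 1.55% in lung, 1.1% in kidney, 0.703% in spleen, 0.388% in liver, 0.333% in muscle, 0.17% in frontal cortex and 0.158% in rumen. Those higher in females made up 0.491% in lung, 0.309% in spleen, 0.2% in kidney, 0.158% in muscle, 0.146% in rumen, 0.133% in liver, 0.127% in heart and 0.0485% in frontal cortex. The members' shares were near the background in adipose and in the male direction in ileum, and a difference in share was not tested.

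All calls together were 43 pairs of a member and a tissue, of 1500 tested, or 2.87%, against 4.16% of the pairs of all identifiers and 4.85% of those of the 3159. They fell on 39 members, 4 of which were called in 2 tissues, a count that was not made over all identifiers. No called difference reached 2-fold. Of the 43, 34 were higher in males and 9 in females. All lay in ileum and adipose, where the share of all identifiers was also larger in the male direction. It was 12.5% against 8.79% in ileum and 6.1% against 4.47% in adipose. With deposited FPKM 42 pairs were called (2.8%, against 4.53% of all pairs), 29 and 13, and the directions were not counted over all identifiers there. Leaving out an animal leaves 1 library in a sex of each tissue, and the calls fell over all identifiers too in 3 of the 4 cases. In ileum and adipose, the libraries that nearly lack the traces are those of the lactating cow. Leaving out either drops the same libraries there, so the traces and the animal cannot be told apart. Without the lactating cow, 9 pairs of members were called (0.6%, against 1.47% of all pairs), 1 of them in ileum and 8 in adipose. Without male A there were 3 (0.2%, against 1.99%) and without male B 19 (1.27%, against 2.87%). Without the dry cow there were 40 (2.67%, against 4.99%), of which 37 were in ileum and 3 in adipose. When the libraries that nearly lack the traces were left out, 8 pairs were called (0.533%, against 1.7%), 1 in ileum and 7 in adipose.

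**Figure D5:**
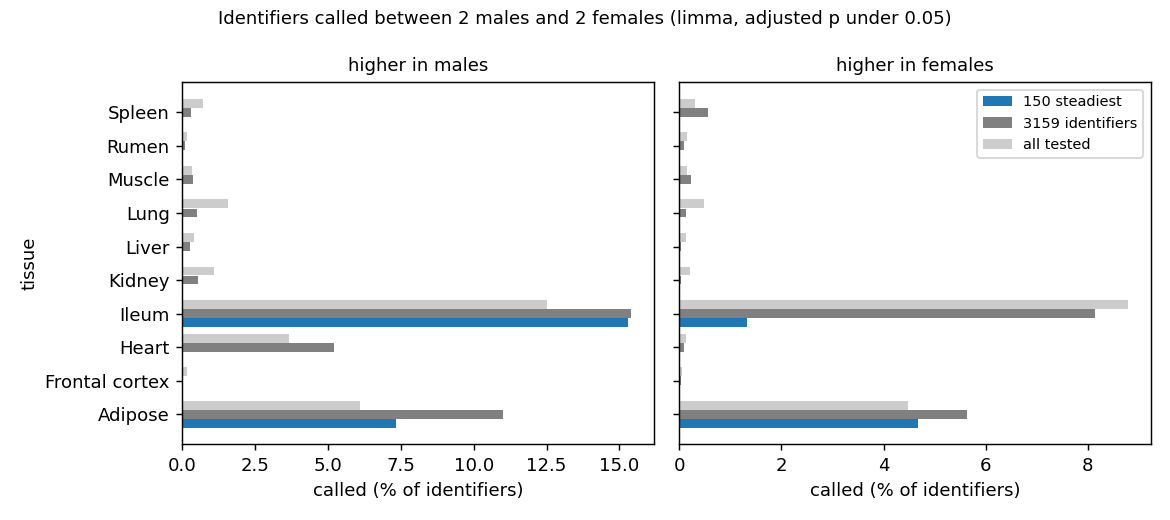
Share of identifiers called between 2 males and 2 females in each of 10 tissues (limma, adjusted p under 0.05), higher in males (left) and higher in females (right), for the 150 steadiest (blue), the 3159 identifiers (dark grey) and all 16493 tested (light grey). Members were called only in ileum and adipose, with 15.3% higher in males in ileum, close to the grey bars, and 1.33% higher in females.

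The sex difference of a tissue was further tested against the mean sex difference over the remaining 9, again by limma. In ileum 24 members differed (16%), against 18.6% of all identifiers and 23% of the 3159. In adipose 13 members differed (8.67%), against 10.2% and 15.7%. No member did in the other 8 tissues, where the shares of all identifiers were 0.57% in lung, 0.358% in spleen, 0.249% in frontal cortex, 0.243% in muscle, 0.2% in rumen, 0.164% in kidney, 0.146% in liver and 0.0485% in heart. The counts of members in ileum and in adipose fell when the lactating cow was left out, a setting in which all identifiers were not counted.

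Member 33, ENSBTAG00000001419, was higher in males in both tissues. In ileum it held 102.9 and 83.1 in the males and 54.2 and 62.8 in the females, a log2 difference of 0.65 ± 0.14 (SE, adjusted p = 0.00158, limma). In adipose it held 89.9 and 81.7 in the males and 52.9 and 54.1 in the females, a log2 difference of 0.67 ± 0.14 (SE, adjusted p = 0.0024, limma). Both males exceeded both females in 7 of the 10 tissues, and the sexes overlapped in the other 3, which were liver, lung and muscle. The 10 tissues come from the same males and females, so the 7 are repeated looks at these animals and not separate support. Member 33 was named for its rank in the tests, and overlap of the sexes was not counted over all identifiers. Without the lactating cow the ileum difference was 0.55 (adjusted p = 0.0999, limma), and without male A it was 0.50 (adjusted p = 0.122, limma). The adipose difference without male A was 0.60 (adjusted p = 0.0739, limma), and it kept an adjusted p under 0.05 without any other animal.

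Member 112, ENSBTAG00000010511, went the other way in adipose, with 40.6 and 41.9 in the males and 70.4 and 66.8 in the females. The log2 difference was -0.72 ± 0.14 (SE, adjusted p = 0.000924, limma), and it passed without each animal in turn. In ileum the same member held 70.2 and 65.8 in the males and 52.3 and 64.6 in the females, which was not called. The smallest adjusted p in ileum belonged to member 144, with 838 and 787 in the males and 460 and 514 in the females (log2 difference 0.74 ± 0.13, SE, adjusted p = 0.000139, limma). Member 145 held 167 and 156 in the males against 82.6 and 115 in the females there (0.72 ± 0.14, SE, adjusted p = 0.000561, limma), and without the lactating cow its difference was 0.49 (adjusted p = 0.123, limma).

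Differences between the 4 animals over the 10 tissues, with tissue as a term, were called for a smaller share of the members than of all identifiers, a difference that was not tested. A limma F test called 22 of 150 members (14.7%), against 24.6% of the 16493 tested and 26.2% of the 3159. At an unadjusted p under 0.05 there were 32 members (21.3%, against 36.5% of all identifiers). The sizes were small: the range over the 4 animal means was a median of 1.1-fold over the members and 1.37-fold at most, against a median of 1.15-fold over the 3159. Among the 22, the lactating cow was the lowest in 13 and the highest in 6. Over all 150 members it was the lowest in 47 and male B in 56. Over the 3159 its median deviation was the lowest of the 4 animals, at -0.05, and lowest animals were not counted there. Without the lactating cow, 3 members (2%) were called, against 6.26% of all identifiers. There were 14 (9.33%, against 18.2%) without male A, 13 (8.67%, against 17.3%) without male B and 21 (14%, against 23.2%) without the dry cow. Without the libraries that nearly lack the traces there were 16 (10.7%, against 10.1%). With quantile normalization there were 28 (18.7%, against 14.6%). Neither in this setting nor without those libraries was the members' share the smaller one.

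Member 33 had the smallest adjusted p of the animal test as well (0.000519, limma), with deviations of 0.15 in male A, 0.16 in male B, -0.21 in the lactating cow and -0.10 in the dry cow. It was 0.0689 without the lactating cow. Members 97, 79, 9 and 129 followed. Member 97 had the largest range, from 0.24 in male A to -0.22 in the lactating cow, and member 79 was highest in the lactating cow (0.18) and lowest in male A (-0.16). The animal is the replicate of sex, and when the means of the 2 males over the 10 tissues were compared with those of the 2 females, no member passed in limma, against 1.61% of all identifiers. At an unadjusted p under 0.05 there were 7 members (4.67%, against 24.8% of all identifiers), led by member 33 with a log2 difference of 0.31 ± 0.07 (SE, adjusted p = 0.0866, limma).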

How the data were processed

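Total RNA of 47 samples was sequenced with an Illumina TruSeq kit, per the labels' protocols. The authors deposited 1 table of FPKM for 24616 Ensembl identifiers. Trimmomatic 0.39, STAR and Cufflinks and the assembly UMD3.1 are named in the submitters' processing notes; their settings are not given in the sources used here. Of 51 columns, 47 matched a sample and the remaining 4 were not used. The match was by name, except that the muscle column of male A has 1 letter more than its sample's title and was matched by tissue code and animal number. The members, the lists and the tests were chosen with earlier results of these data known. Rescaling and the minimum level followed the rule stated in the opening, with 5 FPKM taken as deposited. FPKM depends on the library's total, so dominant transcripts lower all others.

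Tests used limma 3.58.1 in R 4.3.3 on log2(rescaled FPKM + 1), which understates differences of low values, with an intensity trend and Benjamini-Hochberg adjustment over 16493 identifiers with at least 1 FPKM in at least 2 of 40 libraries (threshold 0.05). All 150 members passed that filter. Sex was fitted in 20 cells of tissue and sex that share 1 estimate of the spread, so that a cell left with 1 library is assumed to vary like the others. The scripts were tested on simulated data. Python 3.11.15 was used with pandas 2.3.3, numpy 2.4.6 and, for plots, matplotlib 3.10.9.

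Animal numbers pair the libraries of different tissues, since they come from the same animal. Deviations from tissue means correlated at a median of 0.252 over 180 pairs of libraries of 1 animal, and at -0.084 over 540 pairs of different animals. The members to be named were set by rank: the 12 steadiest, 3 on each side of the threshold, 5 at each end of the level, the 3 widest ranges and up to 5 per test and direction. Members 86 and 120 and the others named for a peak, a minimum, a spread or a position within a tissue were chosen after their values were seen. Marker, family and promoter motif lists were given by gene symbol and could not be applied. Alternatives changed the scaling, the minimum level, the measure of spread, the tissues, the pseudocount, the filter and the libraries.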

Additional observations from a re-analysis of the deposited data

Results flagged for a closer look

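Of 50 groups of 4 libraries examined, 3 had a library whose gap to the nearest of the others exceeded Dixon's 95% critical value as a share of the group's range. Chance gives about 1 in 20 such groups. In adipose, member 2 (ENSBTAG00000021288) held 289.6 in male A and 233.2 to 239.6 in the other 3 (share 0.887). In heart, member 1 (ENSBTAG00000009683) held 178.7 in the dry cow and 146.4 to 150.9 in the others (share 0.861). In spleen, the median deviation of the 150 members was -0.04 in male A and -0.13 to -0.12 in the others (share 0.891).

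The male minus female difference of 24 members in ileum and of 13 in adipose departed from that of the remaining tissues in limma. The shares were 16% and 8.67%, against 18.6% and 10.2% of all identifiers. Without the lactating cow there were 0 in ileum and 3 in adipose, and without the libraries that nearly lack the traces 0 and 6. Without the dry cow there were 37 and 1, without male A 4 and 2, and without male B 4 and 3. The count in ileum was 45 with deposited FPKM and 55 with quantile normalization. All identifiers were not counted in these other settings, so no change is read as particular to the members.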

How the results depend on the processing

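The members shared with the 150 steadiest numbered 41 with deposited FPKM, 28 with quantile normalization, 1 with median-of-ratios size factors, 24 with centring on the median of the 3159 and 99 with only the 10 tissues of all 4 animals. Leaving out each animal in turn gave 112 to 143. The calls by sex, 43 in all, numbered 8 without the libraries that nearly lack the traces and 3 to 40 without each animal. The animal test's 22 members became 3 to 21, and the within-tissue SD of 0.163 became 0.148 to 0.168. With the animal as a replicate block, the calls by sex numbered 45 and the within-tissue SD was 0.150 (0.191 over the 3159), and the calls by sex of the members named there did not change. The animal effect on member 33 was lost with quantile normalization (adjusted p = 0.065, limma). Of the 11 alternatives to the difference of member 112 in adipose, all 11 kept its direction and call. The cause of each change was not tested.

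Centring, the animal block of the sex test, leaving out the ovary of the lactating cow and a minimum that spares the lactating gland were chosen after seeing the data. Only 2 animals a sex, labels of 1 library and unknown depth limit every comparison.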
